A study of Mus musculus with 6 samples.

Results

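Gene expression in mouse skin after repeated painting with DMBA was compared with expression after its solvent, acetone, over both genotypes of the series. All 6 arrays of the series, of 6 in all, entered the comparison, and each was placed by the treatment that its label names, which gave 4 DMBA arrays and 2 acetone arrays. The mice were C57BL6/129Sv, labelled 8 weeks old, and either wild type (WT, Sting +/+) or STING-deficient (SKO, Sting -/-). WT acetone skin and SKO acetone skin, each given 100 µl of the solvent, had 1 array each. The DMBA arrays were 2 tumours from WT mice (tumour 1 and tumour 2) and 2 samples of dorsal skin from SKO mice (SKO DMBA skin 1 and skin 2). DMBA had been given weekly at 10 µg in 100 µl acetone for 18 to 20 weeks. All WT DMBA samples were tumours and all SKO DMBA samples were skin, so tissue and genotype cannot be told apart among the DMBA arrays. The labels number the samples without naming separate mice, so the spread between arrays may be technical.

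DMBA is a polycyclic aromatic hydrocarbon that binds the aryl hydrocarbon receptor (AhR), a transcription factor that switches on cytochrome P450 enzymes. In mouse skin these enzymes, Cyp1b1 and Cyp1a1 among them, turn DMBA into a form that binds DNA. STING is an adaptor in the endoplasmic reticulum through which DNA in the cytosol leads to interferon and cytokine production, and repeated DMBA painting is a classical way to cause inflammation, epidermal thickening and tumours in mouse skin.

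RNA was hybridised to one-colour Illumina BeadChips, and levels are given on a log2 scale of background-corrected and quantile-normalized intensity. Of 19057 genes with a named probe, 11998 were detected on at least 1 array and tested, and 8597 of them were detected on all 6 arrays. Between 35.5% and 43.3% of 45281 probes were detected per array. A difference is the fitted DMBA minus acetone difference from limma with genotype as a covariate, which here equals the mean of the WT and SKO responses, and its SE is limma's moderated standard error with n = 4 and 2. A gene is said to lie higher or lower when all 4 DMBA arrays lay above, or below, both acetone arrays. The gap is the distance between the nearest DMBA and acetone arrays.

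Tumour 1 stood apart from every other array. Its correlation with the other 5 arrays across genes, which are not independent replicates, was between 0.766 and 0.923, and 1837 genes differed over 2-fold between it and tumour 2. The SKO DMBA arrays were the most alike (r = 0.981, 392 genes). The acetone arrays had 696 genes over 2-fold apart, and WT acetone skin correlated better with the SKO DMBA arrays (0.971 and 0.972) than with SKO acetone skin (0.959). Of 7 keratinocyte markers, 6 were tested and detected on every array, with a summed level between 97510 and 108300. Single markers were less even, with WT responses from -0.29 (Krt14) to 1.525 (Perp), so the sum does not measure keratinocyte content. The levels of other cell types were far less even.

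**Figure D1:**
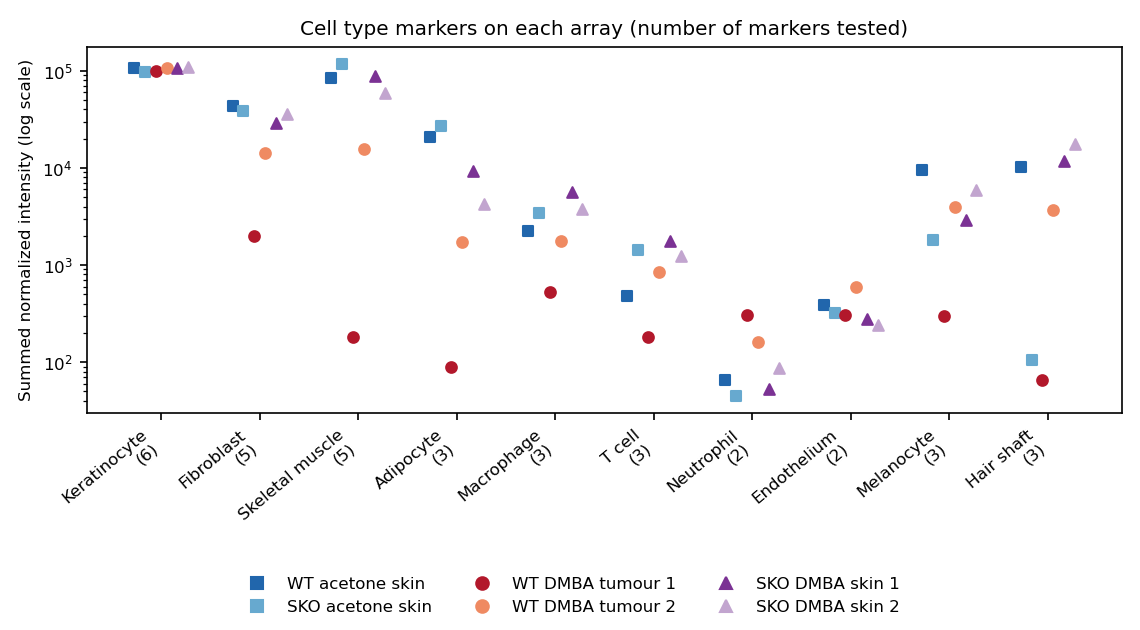
Summed normalized intensity (log scale) of the markers of 10 cell types on each array, with squares for acetone, circles for tumours and triangles for SKO DMBA skin; signals below detection are included in the sums. The sum of the keratinocyte markers was alike on all 6 arrays, whereas that of adipocyte markers was lower on every DMBA array than on either acetone array.

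Skeletal muscle markers summed to 84390 and 118400 on the acetone arrays. They reached 183.3 in tumour 1, 15470 in tumour 2, and 88740 and 58860 in SKO DMBA skin. Adipocyte markers summed to 20900 and 26720 on the acetone arrays against 89.35, 1716, 9284 and 4216 on the DMBA arrays, in the same order. Fibroblast markers were 43180 and 38810 against 2006, 14330, 28690 and 35460. Hair shaft markers were high in WT acetone skin (10300) and near background in SKO acetone skin (106.5) and tumour 1 (65.39). In bulk samples, fewer cells of a type and less RNA per cell cannot be told apart. The part of these shifts in the results was not tested.

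The targeted gene, Sting1, read 6.31 (WT) and 4.94 (SKO, undetected) with acetone, 5.40 (undetected) and 6.79 in the tumours, and 5.55 and 5.33 in SKO DMBA skin on the log2 scale. Thus the DMBA and acetone arrays overlapped. The difference was 0.14 (SE 0.44, adjusted p = 0.890). Since the position of its probe relative to the deleted part is unknown here, Sting1 gives no check of genotype.

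Many genes lay on the same side in both genotypes, most of them by modest distances. All 4 DMBA arrays lay above both acetone arrays for 1275 genes (10.6% of those tested) and below them for 1579 genes (13.2%). The median difference was 0.56 among the first and -0.81 among the second, and the gap exceeded 1 log2 unit for 21 and 47 genes. These counts rest on few arrays, and each array left out removes a condition that a gene must meet. They became 2966 and 3153 without WT acetone skin, 2002 and 2271 without SKO acetone skin, and 2142 and 2432 without SKO DMBA skin 1. Counts within many of the gene lists also moved when an acetone array was left out, and the medians of several lists are therefore given for each genotype. With array medians equalized in place of quantile normalization, 840 genes lay higher and 1968 lower, and with no normalization between arrays 663 and 2080, where the median difference of all genes was -0.15 against 0.02 here. Without tumour 1 the counts were 1619 and 1859, and with undetected signals raised 1217 and 1386. A list count under an alternative setting is to be read beside the count over all genes under that setting. Each gene is given by its brightest probe. Of 527 genes that lay higher and had several detected probes, all probes lay higher for 127 and had a positive difference for 447. Of 596 such genes that lay lower, all probes lay lower for 213 and had a negative difference for 456. Among the genes named below, at least 1 other detected probe overlapped for Angpt2, Cd44, Cd6, Cgas, Cxcl10, Cxcl12, Dcn, Gsn, Mbp and Ptges.

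The limma test called 1 gene at an adjusted p under 0.05, higher (0.00833% of tested genes), and 0 genes lower (0%). Without adjustment, 808 genes were higher (6.73%) and 1265 lower (10.5%) at p under 0.05. With 4 arrays against 2, an exact permutation test of a single gene cannot go below p = 0.0667. The other genes are therefore described by their levels on each array.

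Responses were larger in the tumours than in SKO skin for most of these genes. Among genes that lay higher, the median size of the response was 0.68 in WT and 0.42 in SKO, and 72.2% had the larger response in WT. Among genes that lay lower, it was 0.98 in WT and 0.58 in SKO, with 74.2% larger in WT. Over all tested genes the responses of the genotypes correlated weakly (r = 0.213 across genes), and 61.0% had the same sign. A set of 1197 genes lay above the WT acetone array in both tumours and below the SKO acetone array in both SKO DMBA skins, and 1242 genes did the opposite.

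**Figure D2:**
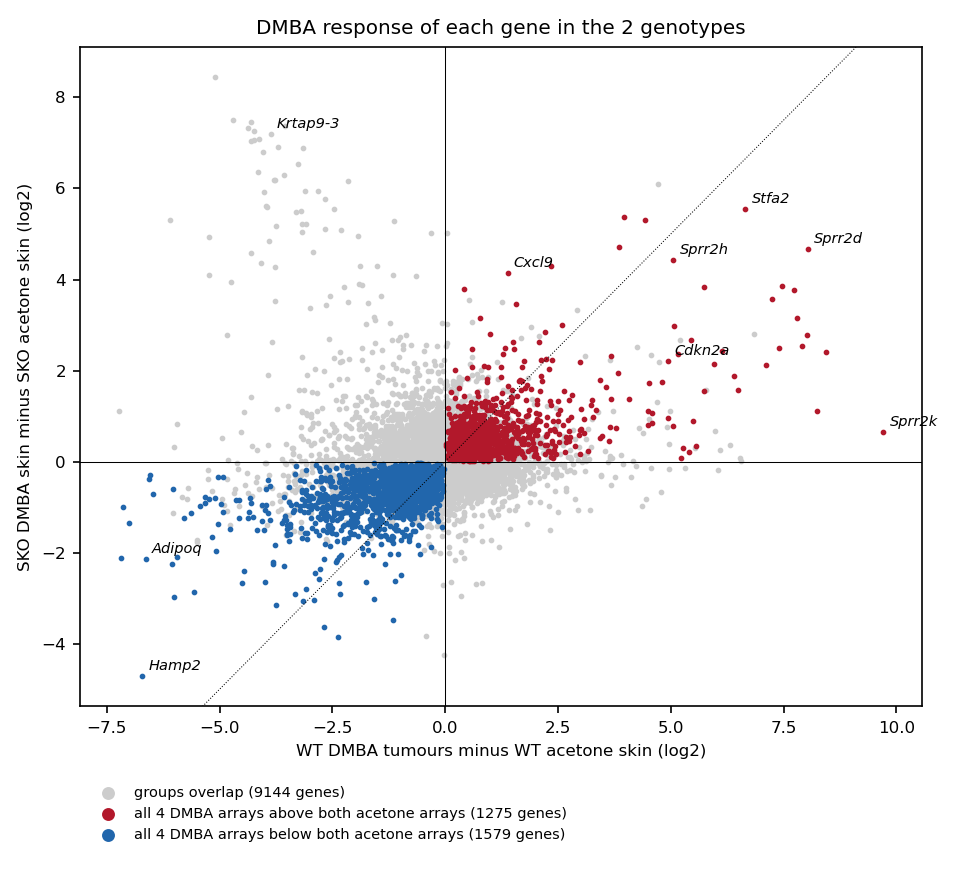
Response of each of 11998 genes in WT (tumours minus WT acetone skin, x axis, log2) and SKO (DMBA skin minus SKO acetone skin, y axis, log2), with the dotted line marking equal responses. Genes higher on all 4 DMBA arrays are red and genes lower on all 4 are blue, by construction in the upper right and lower left; Sprr2 genes reach furthest right and hair keratin-associated genes such as Krtap9-3 lie upper left.

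The widest separation upward lay in the Sprr2 genes, which encode small proline-rich precursors of the cornified envelope and are switched on in stressed and thickened epidermis. Sprr2d was at 6.62 in WT acetone skin and 5.73 in SKO acetone skin. It stood at 14.49 and 14.83 in the tumours and at 9.33 and 11.49 in SKO DMBA skin. The groups were separated by a gap of 2.71, with the tumours highest, and the difference was 6.36 (SE 0.95, adjusted p = 0.144).

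Sprr2h was the single called gene. It was at 7.73 in WT acetone skin and undetected at 4.59 in SKO acetone skin. Its levels were 12.96 and 12.61 in the tumours and 8.91 and 9.13 in SKO DMBA skin. Sprr2h rose by 4.74 (SE 0.24, adjusted p = 0.0444). Its SKO response is set against an undetected probe, so the fitted size and its SE depend on a value not above background, and the difference was 4.17 with undetected signals raised. When 1 array was left out the difference stayed between 4.43 and 5.05 with fewer residual degrees of freedom, and the adjusted p ran from 0.0567 to 0.354. The call was also lost under 8 of the other settings tried.

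Sprr2e was detected on all 4 DMBA arrays and on neither acetone array, and stood at least 34.8-fold higher with DMBA. Sprr2g was at 5.38 in WT acetone skin and undetected at 4.44 in SKO acetone skin, against 13.12 and 13.13 in the tumours and at least 7.41 in SKO DMBA skin (difference 5.75, SE 0.98). All 8 tested protein-coding Sprr2 genes that neighbour each other on chromosome 3 lay higher on all 4 DMBA arrays, with a median difference of 4.85. Probes of such near-identical genes may share signal, so the members are not separate evidence. Sprr2k stood far higher in the tumours than in SKO skin. It was undetected on both acetone arrays and in SKO DMBA skin 1, reached 14.90 and 13.24 in the tumours and 5.52 in SKO DMBA skin 2, and was at least 20.6-fold higher with DMBA.

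The sequences around the starts of Sprr2d, Sprr2e and Sprr2h are shown because they were among the widest gaps upward or, for Sprr2h, called, that of Hamp2 because it had the widest gap downward, and that of Cyp1b1 because it encodes the main DMBA-activating enzyme of skin. Each is the RefSeq window of assembly GRCm38.p6 from 250 bases before to 50 after the gene start, 5′ to 3′ on the gene's strand. Capitals mark matches on either strand to TGANTCA, the site of the AP-1 factors that drive many epidermal stress genes, to GCGTG, the core bound by AhR, or to TGACNNNGC, the antioxidant element bound by NRF2, which can overlap TGANTCA.
Sprr2d, chr3:92338890-92339189, plus strand: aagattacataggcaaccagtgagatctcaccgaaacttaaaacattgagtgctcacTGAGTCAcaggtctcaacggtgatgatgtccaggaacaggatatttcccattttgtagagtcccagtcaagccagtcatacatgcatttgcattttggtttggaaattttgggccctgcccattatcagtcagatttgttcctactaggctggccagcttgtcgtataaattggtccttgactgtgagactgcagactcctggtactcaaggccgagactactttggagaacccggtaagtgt
Sprr2e, chr3:92351893-92352192, plus strand: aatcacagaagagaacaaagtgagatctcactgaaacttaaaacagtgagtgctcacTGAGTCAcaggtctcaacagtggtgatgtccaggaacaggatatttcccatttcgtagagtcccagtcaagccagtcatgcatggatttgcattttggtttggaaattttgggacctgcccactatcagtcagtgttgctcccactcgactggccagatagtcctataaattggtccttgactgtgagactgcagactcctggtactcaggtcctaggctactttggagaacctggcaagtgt
Sprr2h, chr3:92385435-92385734, plus strand: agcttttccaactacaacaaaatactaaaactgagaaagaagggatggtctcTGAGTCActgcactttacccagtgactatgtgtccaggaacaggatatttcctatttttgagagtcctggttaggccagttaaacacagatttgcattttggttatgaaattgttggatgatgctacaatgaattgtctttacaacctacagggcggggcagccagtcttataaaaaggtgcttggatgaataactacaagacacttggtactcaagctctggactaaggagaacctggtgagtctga
Hamp2, chr7:30924132-30924431, minus strand: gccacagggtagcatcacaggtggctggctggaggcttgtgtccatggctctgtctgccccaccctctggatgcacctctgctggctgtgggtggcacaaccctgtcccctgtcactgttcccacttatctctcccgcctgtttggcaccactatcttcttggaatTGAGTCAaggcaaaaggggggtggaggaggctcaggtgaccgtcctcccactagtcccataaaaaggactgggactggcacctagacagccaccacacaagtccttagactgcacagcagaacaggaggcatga
Cyp1b1, chr17:79715012-79715311, minus strand: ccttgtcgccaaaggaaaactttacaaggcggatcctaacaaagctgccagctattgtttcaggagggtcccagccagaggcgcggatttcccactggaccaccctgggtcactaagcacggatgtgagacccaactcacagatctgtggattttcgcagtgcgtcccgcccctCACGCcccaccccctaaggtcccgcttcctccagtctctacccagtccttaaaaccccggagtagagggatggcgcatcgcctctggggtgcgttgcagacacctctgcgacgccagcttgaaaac

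An AP-1 match stood 193 bases before the start in both Sprr2d and Sprr2e, and 198 bases before it in Sprr2h. Of 10 Sprr2 promoters in the table, 7 held such a match, and they are copies of one ancestral gene. Of 33 promoters of the hyperproliferative keratinocyte list, 13 held it (39.4%), and of the 19 whose genes lay higher on all 4 DMBA arrays, 10 did (52.6%). That list includes Sprr2 genes, so both counts repeat Sprr2 matches and are not separate evidence. The share with an AP-1 match was 7.93% over 27025 promoters. It was 7.40% over the 1014 promoters of all genes that lay higher, 6.21% over the 1240 of genes that lay lower and 5.60% over the 7391 of tested genes whose groups overlapped. Hamp2, which lay lower on every DMBA array, also held an AP-1 match, 84 bases before its start. The AhR core stood once in the Cyp1b1 window, 76 bases before the start, and in 32.5% of all promoters. It was in 48.5% of those of genes that lay higher, 48.8% of those of genes that lay lower and 48.9% of those that overlapped. The antioxidant element was in 12.5% of all promoters and in 15.2%, 12.5% and 14.8% of these groups.

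**Figure D3:**
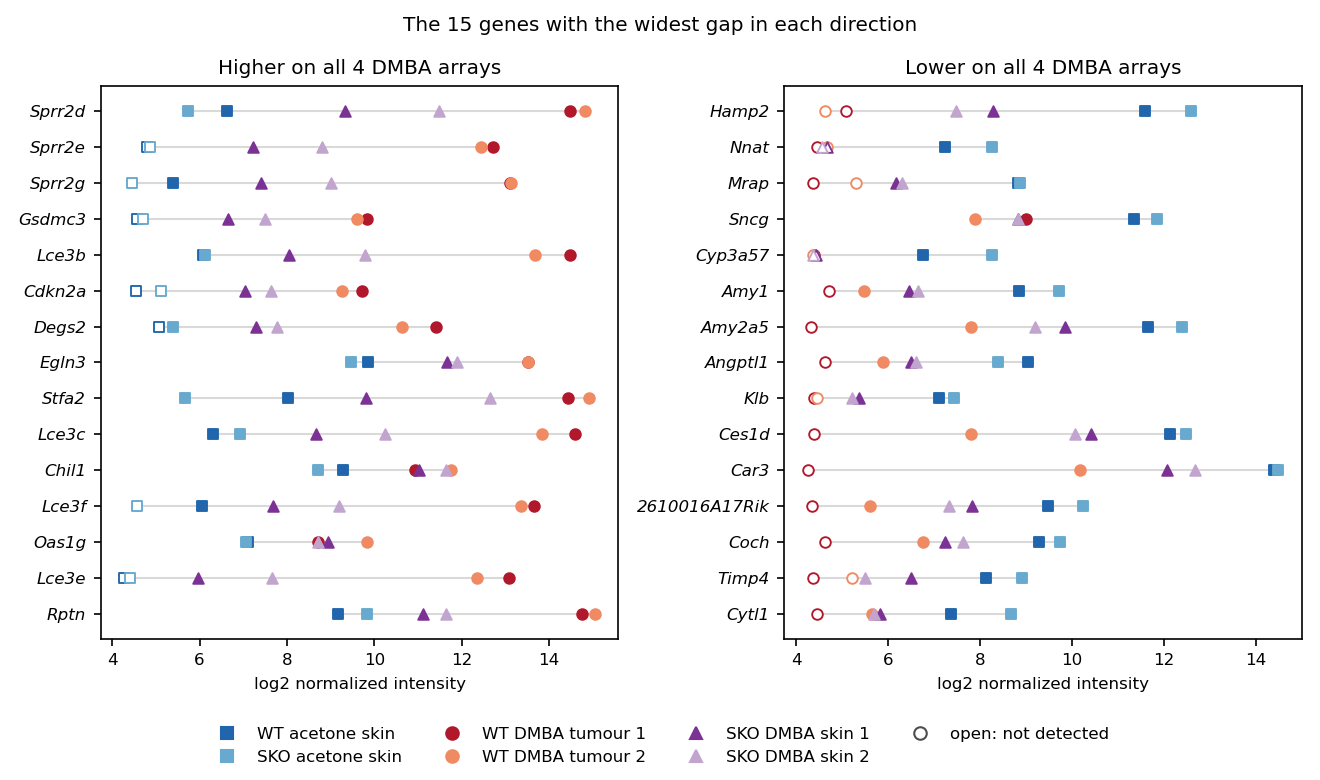
Log2 normalized intensity on each of the 6 arrays for the 15 genes with the widest gap in each direction (squares acetone, circles tumours, triangles SKO DMBA skin, open symbols not detected). On the left SKO DMBA skin lies between acetone skin and the tumours for Sprr2, Lce3 and Rptn, and on the right Hamp2 has the widest gap.

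Genes of wounded and hyperproliferative keratinocytes lay higher as a group. Of 39 tested members of the list, 23 lay higher (59.0%) and 0 lower, against 10.6% and 13.2% of all genes. All 39 differences were positive, with a median of 3.32 against 0.02 over all tested genes. The median response was 4.57 in WT and 1.72 in SKO. Most of the 23 were Sprr2 or stefin A genes, related copies rather than separate evidence. Of the wound keratins, Krt16 lay higher (difference 4.28) with a gap of 0.18. Krt6a, Krt6b and Krt17 overlapped, with differences of 2.52, 3.46 and 0.27. With undetected signals raised, 17 of the 39 lay higher. Among the 21 members detected on all 6 arrays, 12 lay higher, and the median difference was 2.515. Beside the Sprr genes, the leading family was the stefins A, inhibitors of cysteine proteases. Stfa2 was at 8.02 and 5.68 on the WT and SKO acetone arrays, 14.43 and 14.92 in the tumours and 9.82 and 12.64 in SKO DMBA skin (difference 6.11, SE 0.82, adjusted p = 0.144). S100a9, which encodes a subunit of calprotectin, was at 9.13 and 6.94 with acetone against 14.02, 14.36, 9.29 and 10.56, so that SKO DMBA skin 1 lay only 0.16 above WT acetone skin. Its partner S100a8 overlapped, since SKO DMBA skin 1 (11.06) lay just under WT acetone skin (11.07). The envelope gene Sprr1b also overlapped by one array, with 10.45 in WT acetone skin, 5.08 and undetected in SKO acetone skin, 15.11 and 15.21 in the tumours, and 10.19 and 12.19 in SKO DMBA skin.

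The late differentiation programme was split between its members. Of 48 tested genes of epidermal differentiation, 14 lay higher (29.2%) and 2 lower (4.17%), against 10.6% and 13.2% of all genes. Their median difference was 0.92, with 1.40 in WT and 0.32 in SKO. Without SKO DMBA skin 1, 28 lay higher, beside 2142 of all 11998 genes. Without SKO DMBA skin 2, 7 lay lower, beside 1979 of all genes. Late cornified envelope genes of group 3, known in human skin to be induced by barrier damage, led those that lay higher. Lce3f was at 6.04 and, undetected, 4.57 with acetone, 13.65 and 13.36 in the tumours, and 7.67 and 9.18 in SKO DMBA skin (difference 5.66, SE 0.90). Lce3b, Lce3c and Lce3e had their DMBA arrays in the same order, and Lce3e, undetected with acetone, was at least 24.0-fold higher. Rptn, the gene of the envelope protein repetin, was at 9.17 and 9.83 with acetone against 14.75, 15.05, 11.11 and 11.64. Lce1m, an envelope gene of group 1, went the other way, from 14.69 and 15.15 with acetone to 10.30, 11.15, 13.82 and 14.58. It does not stand for its group, since Lce1g lay higher (difference 2.61, SE 0.82) and the other tested Lce1 genes overlapped. Krt77, a keratin of the suprabasal epidermis, overlapped in SKO DMBA skin 2 (11.65 against 11.30 in WT acetone skin) although it was undetected in tumour 1.

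These genes sit together. Of 52 tested protein-coding genes between S100a1 and S100a10 on chromosome 3, the stretch called the epidermal differentiation complex, 17 lay higher on all 4 DMBA arrays (32.7%) and 1 lower (1.92%). Of the 561 other tested genes of that chromosome, 11.2% lay higher and 13.2% lower. In this stretch Sprr2 genes gave 8 of 8, Lce3 genes 4 of 5 and S100a genes 2 of 12. Most of the 17 were thus Sprr2 and Lce3 genes, and the share does not describe the stretch as a whole.

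Several further genes with wide gaps belong to other processes. Gsdmc3, a member of the pore-forming gasdermins, was undetected on the acetone arrays and at 9.84, 9.60, 6.64 and 7.50 on the DMBA arrays, at least 9.31-fold higher. Degs2, which makes the hydroxylated ceramides of the skin barrier, was at 5.07 (undetected) and 5.39 with acetone against 11.42, 10.64, 7.28 and 7.78. Chil1, a secreted chitinase-like protein of inflamed tissue, was at 9.28 and 8.72 with acetone. It stood at 10.94 and 11.77 in the tumours and 11.03 and 11.64 in SKO DMBA skin (difference 2.35, SE 0.34, adjusted p = 0.144). Unlike the envelope genes, Chil1 overlapped between tumours and SKO DMBA skin.

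Cdkn2a, which encodes the INK4a and ARF tumour suppressors and is switched on by oncogenic RAS signalling and cell ageing, was undetected in both acetone skins. It was at 9.72 and 9.25 in the tumours and at 7.03 and 7.64 in SKO DMBA skin, at least 9.42-fold higher with DMBA. All 3 of its detected probes lay higher on the 4 DMBA arrays. Among 25 tested p53 targets and DNA damage genes, 6 lay higher (24.0%) and 1 lower (4.00%), against 10.6% and 13.2% of all genes. Cdkn2a itself was in this list and among the 6. The median of the list was 0.33, with 0.42 in WT and 0.06 in SKO. The higher count was 13 without SKO DMBA skin 1, and it was 2, with a median of 0.10, when no normalization between arrays was done. Over all 11998 genes the higher counts were 2142 and 663 under these settings. Plk2, a kinase induced by p53, was at 8.30 and 7.81 with acetone against 10.23, 9.89, 8.76 and 8.42. Cdkn1a, the p21 cell cycle inhibitor and a classical p53 target, differed by 0.56 (SE 0.25) with a gap of 0.09, and Rrm2b by -0.57 (SE 0.21).

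Cell cycle genes leaned the same way but seldom separated. Of 36, 2 lay higher (5.56%, under the 10.6% of all genes) and 0 lower, although 33 differences were positive, with a median of 0.41. The median response was 0.75 in WT and close to 0 in SKO. Cdc20, an activator of anaphase, was at 8.99 and 8.76 with acetone, 11.16 and 10.33 in the tumours and 8.74 and 9.25 in SKO DMBA skin. Without SKO DMBA skin 1, the lowest of the DMBA arrays for this list, 20 members lay higher, beside 2142 of all 11998 genes.

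Genes that respond to low oxygen contained one of the widest gaps. Egln3, a prolyl hydroxylase that marks HIF for decay and is itself induced by HIF, was at 9.85 and 9.46 with acetone. It was at 13.53 and 13.51 in the tumours and 11.67 and 11.89 in SKO DMBA skin (difference 3.00, SE 0.34, adjusted p = 0.128). Of 25 members of the hypoxia and glycolysis list, 8 lay higher (32.0%) and 0 lower, against 10.6% and 13.2% of all genes. The median was 0.77, with 1.40 in WT and 0.08 in SKO. Without SKO DMBA skin 1, 13 lay higher, beside 2142 of all 11998 genes. Car9, a carbonic anhydrase of hypoxic cells, was at 5.55 and undetected at 4.85 with acetone against 8.85, 7.33, 5.89 and 6.08. Slc2a1, the main glucose transporter of keratinocytes, was at 10.41 and 10.80 against 13.16, 13.41, 11.13 and 11.19. Aldoa, the muscle form of aldolase, was at 13.53 and 14.32 with acetone against 12.83, 12.70, 13.90 and 13.43, and overlapped.

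**Figure D4:**
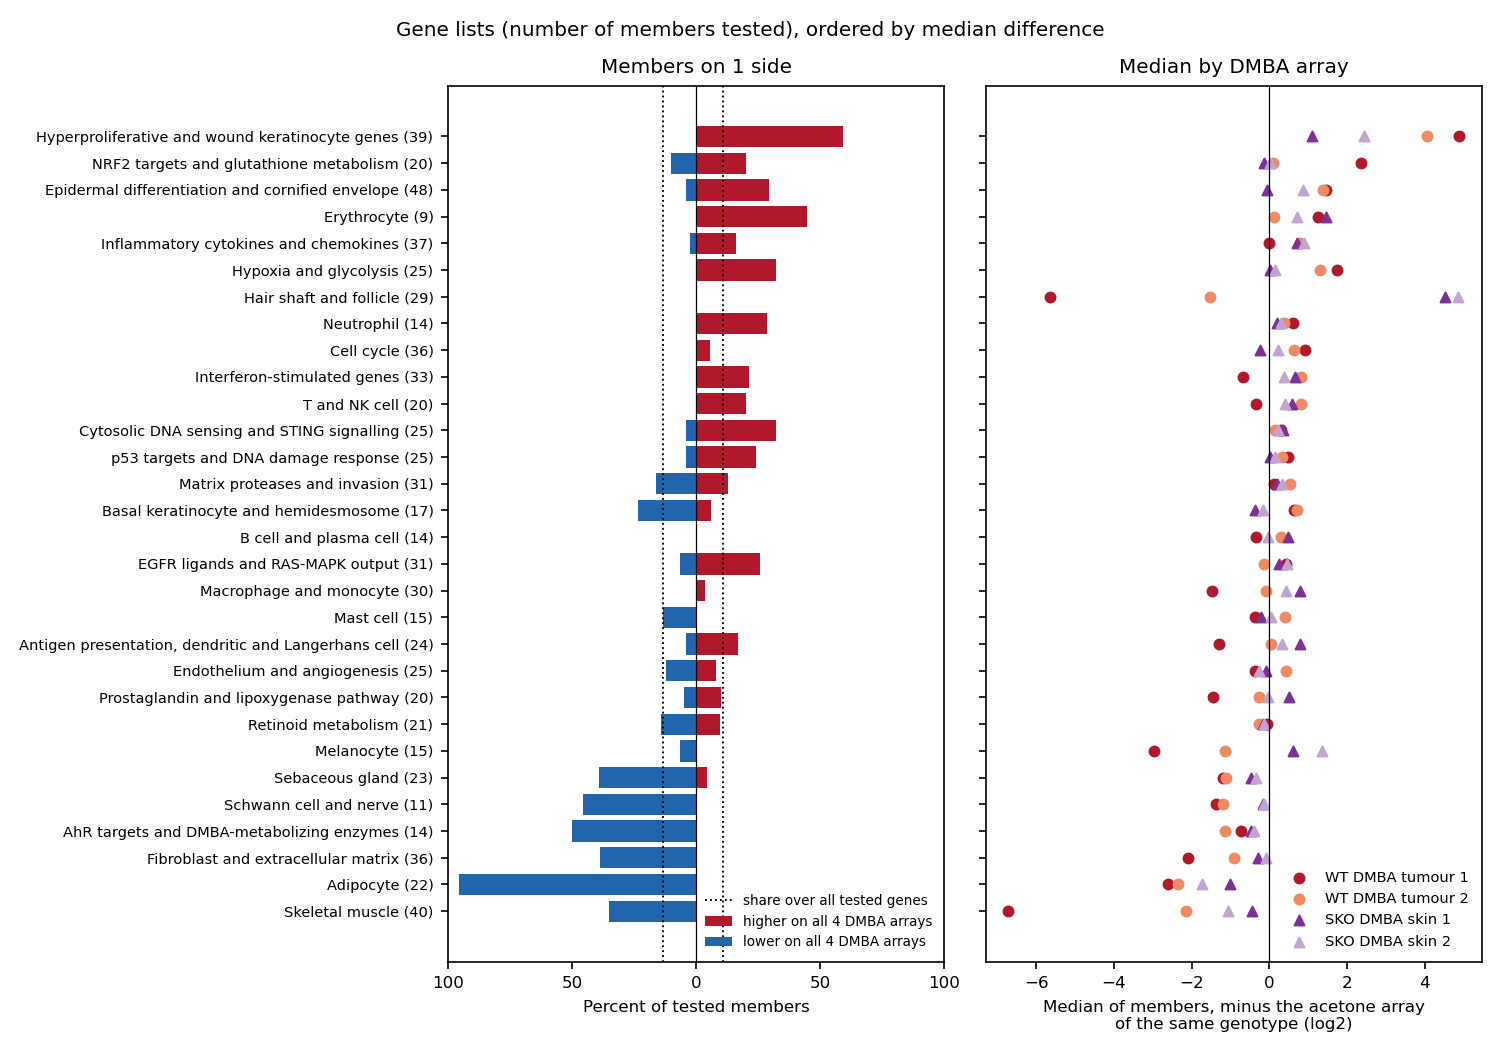
Left, the percent of tested members of each of 30 gene lists that lay higher (red) or lower (blue) on all 4 DMBA arrays, with dotted lines at the shares over all tested genes (10.6% and 13.2%). Right, the median of the members on each DMBA array minus the acetone array of the same genotype (log2), where hair genes lie below 0 in the tumours and above 0 in SKO DMBA skin.

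Fat-cell transcripts lay lower throughout. Of 22 adipocyte genes, 21 lay lower on all 4 DMBA arrays (95.5% against 13.2% of all genes) and 0 higher, with a median of -2.01, of -2.50 in WT and of -1.42 in SKO. The median was -1.25 when the background step was left out. Adipoq, the adipocyte hormone adiponectin, was at 14.06 and 14.31 with acetone, 4.35 (undetected) and 10.50 in the tumours and 12.69 and 11.65 in SKO DMBA skin. The difference was -4.39 (SE 1.94, adjusted p = 0.321), and the wide SE comes with the distance between the tumours. Car3, a carbonic anhydrase abundant in fat and muscle, was at 14.39 and 14.49 with acetone against 4.26 (undetected), 10.16, 12.05 and 12.67. Lep, the hormone leptin, was at 11.84 and 12.60 against 5.62 (undetected), 7.92, 11.34 and 9.93. Pparg, the master regulator of fat-cell differentiation, was at 10.31 and 10.76 against 7.80, 7.41, 9.49 and 9.04 (difference -2.10, SE 0.35, adjusted p = 0.162). The single member that overlapped, Retn, was detected on 1 array.

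Several genes known from fat tissue were also among the widest gaps downward. Hamp2, a mouse hepcidin paralogue, had the widest gap of all genes (-3.30). It was at 11.58 and 12.59 with acetone, undetected in both tumours (5.09 and 4.64) and at 8.28 and 7.47 in SKO DMBA skin (difference -5.72, SE 0.53, adjusted p = 0.101). Mrap, the melanocortin receptor accessory protein, was at 8.83 and 8.87 against 4.37 and 5.31 (both undetected), 6.16 and 6.30. Sncg, a synuclein of fat and sensory neurons, was detected everywhere and was at 11.34 and 11.86 against 8.99, 7.88, 8.82 and 8.82, with alike responses in WT (-2.91) and SKO (-3.04). Its other detected probe overlapped. Klb, the co-receptor of endocrine fibroblast growth factors in fat and liver, was at 7.11 and 7.43 against 4.40 and 4.45 (undetected), 5.38 and 5.21. Nnat, an imprinted gene of neuroendocrine and fat tissue, and Cyp3a57, a cytochrome P450, were undetected on all 4 DMBA arrays. They were at least 5.33-fold and at least 4.51-fold lower with DMBA.

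Amy1, which encodes an amylase, was at 8.85 and 9.71 with acetone against 4.71 (undetected), 5.47, 6.46 and 6.65 (difference -3.46, SE 0.29, adjusted p = 0.101). Amy2a5, a near relative whose probe may share its signal, was at 11.64 and 12.39 against 4.32 (undetected), 7.81, 9.84 and 9.19. Amy1 and Hamp2 were called lower, and Sprr2h was not called, when the background step was left out or the authors' deposited log2 matrix was used. Timp4, an inhibitor of matrix proteases, Angptl1, Ces1d, Coch, Cytl1 and 2610016A17Rik complete the 15 widest gaps downward, with differences between -4.15 and -2.62. All 6 were undetected in tumour 1, and all but Timp4 were detected on the other DMBA arrays. Serpinb6e, a serine protease inhibitor with one of the 5 largest differences downward, was at 11.56 and 13.29 with acetone against 4.50 (undetected), 6.61, 10.34 and 10.28 (difference -4.49).

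Skeletal muscle genes were lower in the tumours and closer to acetone in SKO skin. Of 40, 14 lay lower (35.0%) and 0 higher, against 13.2% and 10.6% of all genes. The median was -2.52, with -4.38 in WT and -0.71 in SKO, and 32 of the 40 were undetected in tumour 1. Without tumour 1 the median was -1.28, and without SKO DMBA skin 1, 31 members lay lower, beside 2432 of all 11998 genes. Acta1, the actin of skeletal muscle, was at 15.39 and 15.49 with acetone against 4.38 (undetected), 13.29, 15.31 and 14.90, so the gap in SKO DMBA skin 1 was 0.08.

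Genes of fibroblasts and matrix leaned lower. Of 36, 14 lay lower (38.9%) and 0 higher, against 13.2% and 10.6% of all genes. The median was -0.88, with -1.47 in WT and -0.23 in SKO. Without tumour 1 the median was -0.52. Gsn, which encodes the actin-severing protein gelsolin, was at 8.07 and 9.24 against 4.70 and 5.12 (undetected), 5.56 and 6.80, so that its levels in the tumours are known only as not above background. Dcn, the matrix proteoglycan decorin, was at 14.95 and 14.94 against 6.75, 13.11, 14.49 and 14.73, so tumour 1 alone was far below the rest. Tnc, a matrix protein of wounds and tumour stroma, overlapped, with 9.53 in WT acetone skin, 6.54 in SKO acetone skin, 9.88 and 10.36 in the tumours and 8.53 and 9.15 in SKO DMBA skin.

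The shares over all genes were 13.2% lower and 10.6% higher. Of 23 sebaceous gland genes, 9 lay lower (39.1%) and 1 higher, with a median of -0.64, though Lpl and Pparg in this list are also fat-cell genes. Scd1, a lipid desaturase of the gland, was at 14.78 and 15.13 against 10.98, 12.63, 14.39 and 14.35. Of 11 Schwann cell and nerve genes, 5 lay lower (45.5%) and 0 higher, with a median of -0.72 that was -0.40 without tumour 1, and Mbp, myelin basic protein, was at 10.56 and 11.22 against 5.77, 8.34, 9.35 and 9.91. Krt15, a keratin of basal keratinocytes, was at 14.10 and 14.20 with acetone against 8.11, 11.41, 13.08 and 13.12. Its list of 17 basal keratinocyte genes had 4 that lay lower (23.5%) and 1 higher, and a median that was 0.87 in WT and -0.32 in SKO. Cd44, a hyaluronan receptor and the member that lay higher, was at 10.89 and 10.54 against 12.17, 11.85, 11.53 and 11.33 (difference 1.01, SE 0.20).

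The enzymes that AhR controls or that metabolize DMBA lay lower or overlapped in these samples. Of 14 tested members, 7 lay lower on all 4 DMBA arrays (50% against 13.2% of all genes) and 0 higher, with a median of -0.84, of -0.87 in WT and of -0.52 in SKO. The median was -0.28 over the 8 members detected on all 6 arrays, of which 3 lay lower, and -0.37 over 17 members with no filter on detection. Cyp1b1 was at 10.19 and 10.49 with acetone, undetected at 4.73 in tumour 1, 8.73 in tumour 2 and 9.69 and 10.15 in SKO DMBA skin. SKO DMBA skin 2 thus lay 0.04 below WT acetone skin, and the difference was -2.01 (SE 1.26, adjusted p = 0.444). Ahr itself, Cyp1a1 and Cyp1a2 were detected on no array.

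Ahrr, the repressor that AhR induces against itself, was at 6.72 and 6.86 with acetone. It was undetected in both tumours (5.62 and 5.12) and at 6.52 and 6.37 in SKO DMBA skin. Ugt1a6a, a glucuronidating enzyme, had nearly the same response in WT (-1.02) and SKO (-1.03) and levels of 7.54 and 8.31 against 6.74, 6.31, 7.17 and 7.37, while its other probe overlapped. Aldh3a1, an aldehyde dehydrogenase, was at 11.61 and 11.80 against 10.94, 8.88, 11.33 and 10.99 (difference -1.17, SE 0.62). Akr1c18, an aldo-keto reductase, differed by -0.79 (SE 0.25). Sult1a1, a sulfotransferase, and Cyp2e1, a cytochrome P450 that is also abundant in liver and fat, were undetected in tumour 1 and differed by -2.61 (SE 1.18) and -3.38 (SE 1.12).

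The other 7 overlapped. Nqo1, a quinone reductase under both AhR and NRF2, was at 6.62 and 6.98 with acetone, 9.31 in tumour 1, 6.92 in tumour 2 and 6.01 and 6.67 in SKO DMBA skin, so tumour 1 alone stood high, while its other detected probe lay higher on all 4 DMBA arrays. Cyp2s1, a cytochrome P450 of surface epithelia, was at 8.92 and 8.21 against 9.84, 9.74, 8.82 and 8.96 (difference 0.77, SE 0.17, adjusted p = 0.187). Tiparp differed by 0.23 (SE 0.38), Arnt by -0.18 (SE 0.19), Cbr1 by -0.16 (SE 0.19), Ephx1 by -0.37 (SE 0.33) and Cyp2b19 by -1.28 (SE 0.80). With every detected probe counted, 7 of 20 probes lay lower and 4 higher, with a median of -0.28, and 3 of the 5 probes of Arnt, the partner of AhR, were among those higher while the brightest was not. The labels do not give the time between the last painting and sampling. Adipocyte and fibroblast markers were also lower on all 4 DMBA arrays, and their part in this result was not tested.

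**Figure D5:**
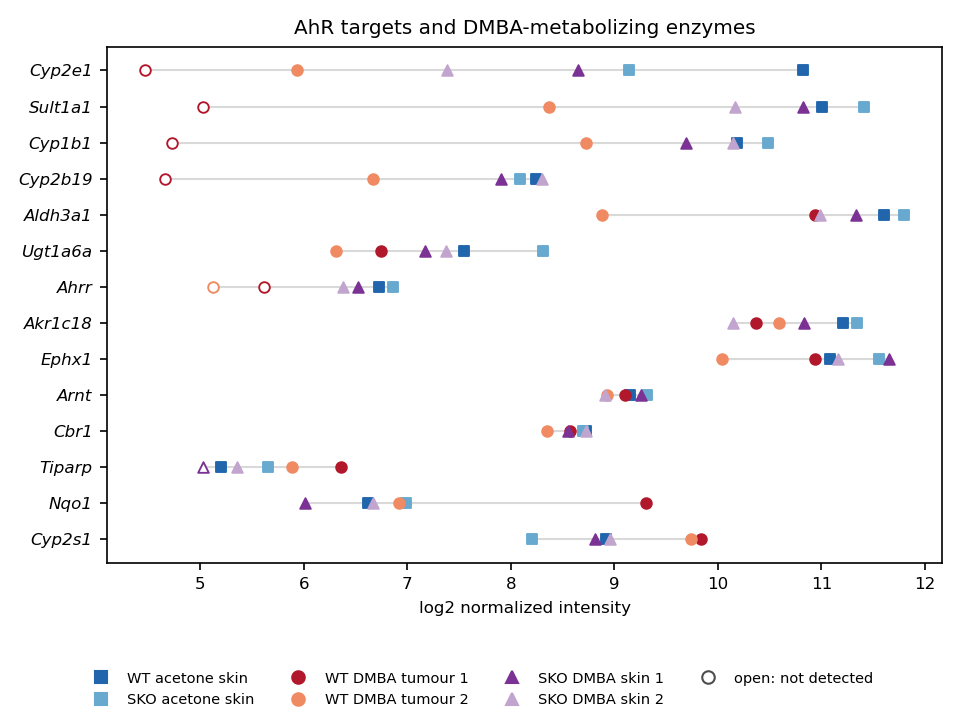
Log2 normalized intensity of the 14 tested genes of AhR and DMBA metabolism on each array (squares acetone, circles tumours, triangles SKO DMBA skin, open symbols not detected), ordered by the DMBA minus acetone difference. The 7 genes from Cyp2e1 to Akr1c18 other than Cyp2b19 have both acetone arrays on the right, and Nqo1 is high in tumour 1.

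Targets of NRF2, which responds to electrophiles such as DMBA metabolites, were split. Of 20, 4 lay higher (20.0%) and 2 lower (10.0%), against 10.6% and 13.2% of all genes. The median was 0.93, with 1.46 in WT and -0.12 in SKO. The median on the single arrays, minus own acetone, was 2.35 in tumour 1 against 0.10 in tumour 2, and without tumour 1 the fitted median was 0.39. Gsto1, a glutathione transferase, was at 10.15 and 9.92 against 14.72, 12.82, 10.34 and 10.39. Mgst2, a membrane-bound relative, was at 8.70 and 9.12 against 11.73, 10.88, 9.68 and 10.16 (difference 1.70, SE 0.50). Hmox1, heme oxygenase, was at 8.18 and 8.40 against 11.06, 9.73, 8.64 and 8.49, and Mgst1 differed by -1.46 (SE 0.42).

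Retinoid genes lay on both sides. Rbp2, a cellular retinol-binding protein, was at 6.14 and 5.93 against 11.05, 10.25, 7.10 and 8.23 (difference 3.12, SE 0.73, adjusted p = 0.195). Lrat, which esterifies retinol, was at 6.36 and undetected at 4.67 against 7.87, 8.36, 6.88 and 6.88. Rbp4, the secreted retinol carrier of liver and fat, was at 8.59 and 9.06 against 4.38 and 5.15 (undetected), 7.13 and 6.58. Of the 21 members, 2 lay higher (9.52%) and 3 lower (14.3%), close to the background shares.

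Of 37 inflammatory cytokines, 6 lay higher (16.2% against 10.6% of all genes) and 1 lower (2.70% against 13.2%), with a median of 0.81. The higher count was 14 without tumour 1, 10 without SKO DMBA skin 1, and 4 with equal array medians, no normalization between arrays or undetected signals raised. Over all 11998 genes these settings gave 1619, 2142, 840, 663 and 1217. Among the 18 members detected on all 6 arrays, 2 lay higher and the median was 0.38. Osm, oncostatin M, a cytokine that acts on keratinocytes, was at 5.79 and 5.34 with acetone against 7.67, 7.63, 6.48 and 6.45 (difference 1.49, SE 0.23, adjusted p = 0.150). Cxcl10, a chemokine induced by interferons, was undetected in both acetone skins and in tumour 1 and at 7.26 in tumour 2 and 6.98 and 7.36 in SKO DMBA skin, at least 2.91-fold higher. Cxcl9, a relative induced by interferon gamma, was level between WT acetone skin and tumour 1 (7.92 in both) and at 7.31 in SKO acetone skin, with 10.68 in tumour 2 and 11.68 and 11.22 in SKO DMBA skin. Cxcl12, a homeostatic chemokine of stromal cells, lay lower (difference -1.54, SE 0.76). Il24 and Il19, cytokines of wounded keratinocytes, overlapped because SKO DMBA skin 1 stayed at acetone levels, with Il24 at 11.69 and 11.37 in the tumours, 5.09 and 6.34 in SKO DMBA skin and 5.43 and 5.45 with acetone.

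Interferon-stimulated genes leaned higher, apart from tumour 1. Of 33, 7 lay higher (21.2%) and 0 lower, against 10.6% and 13.2% of all genes, with a median of 0.38. The median minus own acetone was -0.68 in tumour 1, 0.82 in tumour 2 and 0.66 and 0.39 in SKO DMBA skin. Without tumour 1, 20 of the 33 lay higher, beside 1619 of all 11998 genes. Oas1g, an oligoadenylate synthetase, had the widest gap, with 7.12 and 7.05 with acetone against 8.70, 9.83, 8.93 and 8.72 (difference 1.96, SE 0.36, adjusted p = 0.173). Isg15, a ubiquitin-like protein induced by type I interferon, was at 6.58 and 5.76 against 6.74, 8.29, 7.44 and 7.71. Both genes lay higher in STING-deficient DMBA skin than in STING-deficient acetone skin, by 1.77 and 1.82.

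The machinery that senses cytosolic DNA contained 8 of 25 members that lay higher (32.0%) and 1 lower (4.00%), with a median of 0.34. Over all genes the shares were 10.6% and 13.2%. Samhd1, which depletes DNA building blocks and limits DNA sensing, was at 8.39 and 8.35 against 11.36, 11.89, 9.70 and 9.49 (difference 2.24, SE 0.49, adjusted p = 0.183), and all 3 of its detected probes lay higher. Trex1, the exonuclease that clears cytosolic DNA, was at 7.84 and 7.78 against 9.46, 9.40, 8.77 and 8.29. Cgas, the sensor upstream of STING, was at 8.53 and 8.72 against 9.69, 9.62, 8.88 and 9.04 (difference 0.68, SE 0.26). With equal array medians or no normalization between arrays 5 members lay higher, with medians of 0.17 and 0.11, beside 840 and 663 of all 11998 genes.

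Immune cell genes gave small counts. Of 14 neutrophil genes, 4 lay higher (28.6% against 10.6% of all genes) and 0 lower, but with equal array medians or no normalization between arrays 2 lay higher and 2 lower. One of the 4, S100a9, is also in the keratinocyte list above, and another is Cxcr2, the chemokine receptor of neutrophils. Cxcr2 was undetected with acetone and in SKO DMBA skin 1 and at least 2.63-fold higher with DMBA. Of the 14 differences, 9 were positive and 5 negative. The negative ones were Il1r2 (-1.14), Mpo (-0.61), Camp (-0.50), Prtn3 (-0.43) and Elane (-0.07), which all overlapped. Camp and Elane were detected on no DMBA array. Of 20 T and NK cell genes, 4 lay higher (20.0% against 10.6%) and 0 lower. The count was 11 without tumour 1, 1 with no normalization between arrays and 2 with undetected signals raised, beside 1619, 663 and 1217 of all 11998 genes. Cd6, a T cell surface receptor, was at 5.19 and undetected at 5.01 with acetone against 5.67 (undetected), 7.77, 7.59 and 7.40. Of the 20 differences, 16 were positive and 4 negative, the latter in Thy1 (-0.63), Cd3e (-0.36), Klrk1 (-0.24) and Cd3g (-0.21). The T cell markers overlapped, with sums of 484.5 and 1444 with acetone against 181.4, 848.1, 1778 and 1238. The shares over all genes were 10.6% higher and 13.2% lower. Of 30 macrophage genes 1 lay higher (3.33%). Of 24 genes of antigen presentation, 4 lay higher (16.7%, 1 with undetected signals raised) and 1 lower (4.17%). Of 14 B cell genes none lay either way, and of 15 mast cell genes 2 lay lower (13.3%). The macrophage median was -0.72 in WT and 0.72 in SKO. Of 9 erythrocyte genes, 4 lay higher (44.4% against 10.6% of all genes), and 3 with undetected signals raised. Alas2, the heme synthesis enzyme of red cells, was at 7.00 in both acetone skins against 9.81, 7.52, 9.86 and 7.70, high in tumour 1 and SKO DMBA skin 1.

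Ligands and early outputs of EGFR signalling, the pathway that drives keratinocyte growth, gave 8 of 31 that lay higher (25.8%) and 2 lower (6.45%). The shares over all genes were 10.6% and 13.2%. The median of the list was 0.05 and turned to -0.11 with equal array medians. Junb, an AP-1 subunit, was at 10.01 and 9.37 against 11.71, 11.27, 10.53 and 10.49 (difference 1.31, SE 0.21, adjusted p = 0.153). Dusp5, a phosphatase that ends ERK signalling, was at 7.97 and 7.48 against 9.87, 9.51, 8.03 and 8.31. The brightest probe of Egf lay lower, at 6.65 and 7.51 against 4.99 and 5.24 (undetected), 6.46 and 6.41, while its other detected probe lay higher. Hbegf and Epgn, ligands of the receptor, overlapped, with Epgn at 8.94 and 7.82 with acetone, 12.10 and 13.23 in the tumours and 8.86 in SKO DMBA skin 1, just under WT acetone skin. Fosb was at 10.54 in WT acetone skin and between 5.74 and 8.41 on the other 5 arrays.

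Prostaglandin synthesis, matrix proteases and vessels stood near the background. Ptges, which makes prostaglandin E, was at 7.41 and 7.06 against 10.17, 9.65, 7.98 and 7.94 (difference 1.70, SE 0.41, adjusted p = 0.202). It was 1 of 2 members of 20 that lay higher (10%), against 10.6% of all genes, and 1 lay lower (5%). Of 31 protease and invasion genes, 4 lay higher (12.9%) and 5 lower (16.1%). Mmp13, a collagenase, overlapped because WT acetone skin was already at 8.46, with 4.63 and undetected in SKO acetone skin, 11.92 and 12.28 in the tumours and 6.53 and 7.20 in SKO DMBA skin. Of 25 endothelial genes, 2 lay higher (8%) and 3 lower (12%), with Angpt2, a destabilizer of vessels, at 8.21 and 8.37 against 9.66, 10.73, 8.78 and 8.55.

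Hair and pigment genes had opposite responses. None of 29 hair genes lay on 1 side, against 10.6% and 13.2% of all genes, and their median response was -3.75 in WT and 4.62 in SKO. The median level of these genes was 10.63 in WT acetone skin and 5.82 in SKO acetone skin, where 11 of 29 were undetected, so the acetone arrays differed before any comparison with DMBA. Krtap9-3, a keratin-associated protein of the hair shaft, was at 11.13 in WT acetone skin and undetected at 4.60 in SKO acetone skin. It was undetected at 4.71 in tumour 1 and at 9.81, 11.63 and 11.95 on the other DMBA arrays. The median of 15 melanocyte genes was -2.35 in WT and 1.01 in SKO, with 1 member, Sox10, lower on all DMBA arrays.

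Whether the responses of the genotypes differed was tested gene by gene. The limma contrast called 0 of 11998 genes (0%) at an adjusted p under 0.05, and 958 (7.98%) at an unadjusted p under 0.05. On simulated data this contrast called none of the genes that had been changed. The 0 calls therefore cannot show that the responses were alike. Without tumour 1 the same test called 131 genes and without tumour 2 it called 1234, while it called 0 without either SKO DMBA array. With 1 tumour left, the residual spread comes from the pair of SKO DMBA skins alone, the most alike of all arrays, and the lone tumour is assumed to vary like them, so these calls are not read further. Among genes that lay higher, Psors1c2, a gene of late keratinocytes, had the largest fitted excess of the SKO response. Psors1c2 was at 9.32 in WT acetone skin and 6.48 in SKO acetone skin, 9.84 and 9.63 in the tumours and 10.11 and 10.44 in SKO DMBA skin, so the lone SKO acetone array set the size of its SKO response (3.80 against 0.42 in WT). S100a7a, an antimicrobial S100 protein of inflamed epidermis, was alike in this, at 7.74 and undetected at 4.43 with acetone against 11.06, 9.10, 8.55 and 8.90. Of genes that lay lower, Pvalb, the calcium-binding parvalbumin of muscle, was at 14.56 and 15.16 with acetone against 4.37 (undetected), 10.47, 14.50 and 13.81. Bmp3, a growth factor of the BMP family, had a response of -0.31 in WT and -1.88 in SKO.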

How the data were processed

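The members and the gene lists were chosen with earlier results of these data known. Per the file headers, the authors deposited non-normalized bead intensity and a detection p-value column for 45281 probes on 6 Illumina arrays. That column rose with the intensity (Spearman correlation at least 0.975), so detection p was taken as 1 minus its value. A matrix of log2 values deposited by the authors served as an alternative. Its values differed by 0.000136 on average from quantile-normalized log2 intensity centred per probe, which fixes its scale and centring. Its column medians lay between -0.002919 and 0.01219. No source used here gives the scanner software or the probe summary.

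Intensities were background-corrected and quantile-normalized with neqc (limma 3.58.1, R 4.3.3, offset 16). Probes were named through the platform annotation: 34885 had 1 gene, 18 several and 10378 none listed, and 34807 identifiers matched RefSeq. A gene was tested where its brightest probe passed a detection p of 0.01 on 1 or more arrays (11998 genes), with the Benjamini-Hochberg adjustment over all of them. The fit used genotype and treatment, with 3 residual and 2.27 prior degrees of freedom. The interaction fit had 2 residual and 2.44 prior. Both fits were tested on simulated data, where fitted sizes matched those put in, but the genotype contrast called none of the changed genes. The number of arrays limits the precision.

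An "at least" fold sets the bright group against a dim group that was undetected on every array, taking for each dim array the higher of its detection limit (log2 5.07 to 5.75) and its own signal. Named genes were Sting1, the 15 widest gaps and 5 largest differences in each direction, every called gene, up to 4 members per direction of each list on 1 side, up to 2 overlapping, all members of the AhR list, and the 5 largest genotype differences in each direction. Alternatives changed the background step, the normalization, the filter, the probes, the model, the values or left out an array.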

Additional observations from a re-analysis of the deposited data

Results flagged for a closer look

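With 4 DMBA arrays, a gene's highest or lowest array was set against the others by Dixon's criterion, which chance meets in about 1 of 20 groups, and 6 named genes met it. Since many genes were named, some would meet it by chance, and the 6 are listed without being read as results. Tumour 2 stood apart for Aldh3a1 (8.88), Sncg (7.88) and Sting1 (6.79). Tumour 1 stood apart for Cytl1 (4.46, undetected). SKO DMBA skin 1 stood apart for Cyp3a57 at 4.44, where all 4 DMBA arrays were undetected, and for Adh7 (10.53), the only DMBA array on which it was detected.

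In 4 gene lists the medians of both tumours, minus own acetone, had the opposite sign to those of both SKO DMBA skins. These differences were not tested. The mean of the tumour medians minus the mean of the SKO DMBA skin medians was 0.93 for basal keratinocyte genes and -1.40 for macrophage genes. It was -8.28 for hair genes and -3.03 for melanocyte genes. For hair genes the lone acetone arrays were themselves 3.98 apart at the median, WT above SKO.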

How the results depend on the processing

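No paired analysis was possible because the labels give no replicate numbers that the groups share. Of 80 counts recomputed under an alternative, 52 stayed within 1.5 times the main count. Many of these 52 were counts of 0 that stayed 0, so the share says little about stability. The number of genes called higher was 0 with group means, with detection on all 6 arrays, equal array medians, no background correction, no detection filter, no genotype covariate, an offset of 50, the deposited matrix and undetected signals raised, and 0 to 0 without each array in turn. The number called lower was 2 with no background correction and with the deposited matrix, and 0 to 0 without each array. The count of genes that lay higher was 840 with equal medians, 663 with no normalization between arrays and 1919 with every detected probe, and 1497 to 2966 without each array. The count that lay lower was 962 with detection on all 6 arrays, which tests fewer genes, and 1699 to 3153 without each array. The genotype contrast called 0 to 1234 genes without each array and could not be fitted without an acetone array.

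Of 1800 values of named genes, 11 reversed, all in genes that overlapped, and the cause was not tested. Sting1 turned to -0.0389 with no normalization and -0.17 with undetected signals raised, and ranged from -0.22 to 0.50 without each array. Retn turned to 0.23 with undetected signals raised. Without each array, Cyp2b19 ranged from -2.57 to 0.0129, Fosb from -3.20 to 0.0163, Krtap9-3 from -3.87 to 7.20, Nqo1 from -0.64 to 1.50 and Tiparp from -0.47 to 0.92. Nqo1 was -0.24 without tumour 1. Each genotype had 1 acetone array, and leaving one out leaves the response of the other genotype alone.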

Other observations

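Adh7, an alcohol dehydrogenase of surface epithelia, was either near background or high. It was at 11.68 in SKO acetone skin and 10.53 in SKO DMBA skin 1. It was undetected in WT acetone skin (4.26), tumour 1 (4.22), tumour 2 (4.27) and SKO DMBA skin 2 (4.31), so the SKO DMBA skins differed from each other by more than 6 log2 units. Adh7 was named as an overlapping member of the retinoid list.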
